A study of Mus musculus with 35 samples.

Results

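The tumor necrosis factor (TNF) axis was followed through wounded mouse skin with 9 genes out of the 22830 gene symbols that both count tables share. They are the ligand gene Tnf, the receptor genes Tnfrsf1a and Tnfrsf1b, the feedback and response genes Tnfaip3, Tnfaip2, Nfkbia and Nfkbiz, and the subunit genes Nfkb1 and Nfkb2. The set was named by role, but Tnfrsf1b was chosen by its measured values, since it stood among the steadiest genes raised in Col5a1CKO wounds at day 14. Its day 14 values in the fibroblast and time-course wounds are therefore a description and carry no test. Whether the cilengitide experiment, also at day 14, entered that choice is not known. Tests of Tnfrsf1b there, and counts that include it, may therefore not be independent of the choice. All animals were on the C57BL/6 background, 8 to 12 weeks old, carried Col5a1 fl/fl, and received tamoxifen and a full-thickness excision on the back. Col5a1CKO animals also carried Col1a2CreERT, which deletes Col5a1 only in cells with an active Col1a2 promoter, chiefly fibroblasts, so that leukocytes and keratinocytes keep the gene. WT animals were Cre-negative littermates. RNA came from a 6 mm punch of the wound, which holds every cell type of the bed.

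The fibroblast and time-course table holds 7 WT and 7 Col5a1CKO wounds at day 14, 3 Col5a1CKO wounds at day 14 that had been injected with cultured WT skin fibroblasts at day 3, and, for day 19, 3 wounds of each genotype. The paper labels its day 14 groups of 7 as given vehicle, with PBS alone as the control for fibroblast injection. It also describes day 14 groups of 4 without naming a vehicle. Which of the 7 wounds of a group received PBS is therefore not known here. The cilengitide table holds 4 WT wounds and 4 Col5a1CKO wounds with PBS vehicle and 4 Col5a1CKO wounds with daily cilengitide at 20 mg/kg, all at day 14. Cilengitide is a cyclic peptide that blocks the alpha v beta 3 and alpha v beta 5 integrins. Levels are given as CPM (counts scaled to a common library total) after TMM scaling, which sets libraries of 1 table to a common scale. The tables were scaled separately, so their levels are not compared by a test. To be called, a gene needed at least a 2-fold change and, in edgeR's quasi-likelihood test, a p under 0.05 after Benjamini-Hochberg adjustment.

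TNF is made mostly by macrophages and other leukocytes as a membrane protein and shed from the cell surface. TNFR1, encoded by Tnfrsf1a, is present on nearly all nucleated cells, whereas TNFR2, encoded by Tnfrsf1b, is found mainly on leukocytes and endothelium. Both receptors lead to the IkB kinase complex, which marks IkB proteins for destruction and frees NF-kB dimers to enter the nucleus. NF-kB in turn induces its own brakes, among them IkB alpha (Nfkbia) and the ubiquitin-editing enzyme A20 (Tnfaip3), so the RNA of these genes rises and falls with recent NF-kB activity in many cell types. In healing skin the pathway belongs to the inflammatory phase, which normally fades as the epidermis closes.

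NF-kB feedback is known to act through kB motifs in DNA. Promoters are therefore shown for the feedback genes Nfkbia and Tnfaip3, beside those of the subunit gene Nfkb2 and the receptor gene Tnfrsf1b. The windows are the 250 bases before the first start site listed for each gene, from RefSeq on build GRCm38.p6, printed 5′ to 3′ on the gene's strand. Capitals mark a match to the kB consensus, read as 3 G, a purine, any 2 bases, 2 pyrimidines and 2 C, on either strand, with overlapping matches merged. Nfkbia is at chr12:55492648-55492897 (minus strand), Tnfaip3 at chr10:19015411-19015660 (minus strand), Nfkb2 at chr19:46304487-46304736 (plus strand) and Tnfrsf1b at chr4:145246871-145247120 (minus strand).
Nfkbia: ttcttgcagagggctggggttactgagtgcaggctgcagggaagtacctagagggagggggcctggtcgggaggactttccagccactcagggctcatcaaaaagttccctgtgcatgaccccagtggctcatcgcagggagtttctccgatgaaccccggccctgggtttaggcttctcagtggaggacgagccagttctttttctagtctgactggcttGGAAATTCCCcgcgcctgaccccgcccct
Tnfaip3: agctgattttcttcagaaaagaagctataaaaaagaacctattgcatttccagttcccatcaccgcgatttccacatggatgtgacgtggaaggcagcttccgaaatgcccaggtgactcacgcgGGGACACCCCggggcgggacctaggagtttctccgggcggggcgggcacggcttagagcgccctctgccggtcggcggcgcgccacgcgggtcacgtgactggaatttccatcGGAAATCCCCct
Nfkb2: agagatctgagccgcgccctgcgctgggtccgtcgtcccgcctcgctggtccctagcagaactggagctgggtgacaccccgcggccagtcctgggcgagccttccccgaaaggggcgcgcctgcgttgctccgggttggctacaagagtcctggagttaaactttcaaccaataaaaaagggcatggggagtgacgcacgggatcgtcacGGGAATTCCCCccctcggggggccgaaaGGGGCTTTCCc
Tnfrsf1b: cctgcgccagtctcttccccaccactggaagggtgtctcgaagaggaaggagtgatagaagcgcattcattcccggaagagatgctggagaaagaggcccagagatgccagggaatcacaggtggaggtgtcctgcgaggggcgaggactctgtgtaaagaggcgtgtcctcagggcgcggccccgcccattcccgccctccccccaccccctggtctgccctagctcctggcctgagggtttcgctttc

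Of the 9 genes, 7 were in the promoter table, and Nfkb1 and Nfkbiz were not. The 7 genes have 10 windows, since Tnfaip3 is listed with 2 start sites and Nfkb2 with 3, and 6 of the 10, from 4 genes, held a match. The windows printed for Tnfaip3 and Nfkb2 each held 2 separate matches, the latter including GGGAATTCCCC, which reads as a match on both strands. The second Tnfaip3 window held none, and the other two Nfkb2 windows held 1 each, GGAATGTCCC and GGGACTTTCC. Nfkbia held 1, 20 to 29 bases before the start site, and Tnfaip2 held 1, GGAGGGCCCC. No match was found in the windows of Tnf, Tnfrsf1a or Tnfrsf1b, which says only that these letters are not in this window. Of all 32851 windows searched, 7.25% held at least 1 match and 0.396% held at least 2.

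In the build used for the counts, NCBI37/mm9, Tnf lies at chr17:35336326-35338952, Tnfrsf1a at chr6:125299380-125312502 and Tnfrsf1b at chr4:144803366-144836773. The feedback and response genes are at chr10:18720716-18735463 (Tnfaip3), chr12:112680680-112693229 (Tnfaip2), chr12:56590398-56593634 (Nfkbia) and chr16:55811488-55839012 (Nfkbiz). Nfkb1 is at chr3:135247619-135354511 and Nfkb2 at chr19:46379227-46386580. All are protein-coding, and the counts were taken over their exons. Nfkb2 overlaps Psd in the annotation. The libraries kept strand, but whether the counting used it is not given in the sources used here, so reads of that overlap could belong to either gene.

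With 1 row kept per gene, depth was 15043838 to 35702566 counts per wound in the fibroblast and time-course table and 51211643 to 68266808 in the cilengitide table. Over all transcript rows the first table held 20130530 to 49085163 counts per wound, in which reads shared by several rows of a gene count more than once. Col5a1 relative to Col1a1 of the same wound was 0.106 to 0.175 over all 14 WT wounds, against 0.0122 to 0.0583 over all 21 Col5a1CKO wounds. Libraries of the first table fall into 2 sets by how GC-rich genes stand against GC-poor genes. At day 14, 4 WT wounds (a to d) and 5 Col5a1CKO wounds (a to e) make up the lower set, and the remaining 14 wounds of that table the upper set. RNA of Y-linked genes marked all 3 WT wounds of the upper set at day 14, while Xist marked both Col5a1CKO wounds and all 3 fibroblast wounds of that set, so sex and group cannot be told apart there. In the cilengitide experiment Xist marked 2 WT and 2 cilengitide-treated wounds, and Y-linked RNA marked the other 2 of each group. Of the vehicle-treated Col5a1CKO wounds, 3 had Y-linked RNA, none had Xist RNA, and replicate 2 had RNA of neither.

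Per length, the receptors differed in level. In WT wounds at day 14 Tnfrsf1a had a median of 31.4 RPKM (reads per kilobase of transcript, scaled to the total over all transcript rows, range 19.7 to 93.0), and Tnfrsf1b had 4.5 (range 3.63 to 6.09). In Col5a1CKO wounds the medians were 66.0 RPKM (range 40.7 to 101) for Tnfrsf1a and 32.0 (range 10.5 to 73.6) for Tnfrsf1b. Nfkbia had the highest median of the 9 genes in all 5 groups of this table, 48.7 RPKM in WT and 203 in Col5a1CKO wounds at day 14, with Tnfrsf1a next in all 5. The lowest medians in WT wounds at day 14 were those of Tnf with 1.19 RPKM and Tnfaip3 with 2.51 RPKM.

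At day 14 in the fibroblast and time-course table the TNF genes were spread widely among Col5a1CKO wounds and, for several of them, lay above WT. Tnf ran from 0.0688 CPM, which is 1 count, to 34.4 (median 3.07) in the 7 WT wounds and from 2.85 to 71.4 (median 47.5) in the 7 Col5a1CKO wounds. The 2 lowest WT wounds, replicates a and b, both had under 1 CPM, and the groups overlapped. Tnfrsf1a ran from 62.1 to 304.5 CPM (median 101) in WT and from 126 to 277 (median 194) in Col5a1CKO wounds, with full overlap. Its WT values split by library set, with 62.1 to 101 CPM in the lower set and 275 to 304.5 in the upper set. Tnfrsf1b ran from 27.1 to 44.9 CPM (median 32.6) in WT and from 74.2 to 494 (median 209) in Col5a1CKO wounds, with no overlap. Its log2 fold change was 3.0 (standard error 0.36), and it was 2.78 within the lower and 3.46 within the upper library set.

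Among the feedback genes at day 14, Tnfaip3 had 7.98 to 26.8 CPM (median 17.7) in WT and 23.1 to 393 (median 131) in Col5a1CKO wounds. Only the lowest Col5a1CKO wound, replicate e, reached into the WT range. Tnfaip2, which is known as a TNF-induced gene of endothelial and myeloid cells, had 33.1 to 64.7 CPM (median 56.5) against 78.6 to 290.1 (median 128), without overlap. Nfkbia had 57.2 to 276 CPM (median 118) in WT and 135 to 752 (median 437) in Col5a1CKO wounds. Nfkbiz, which encodes the nuclear protein IkB zeta, had 44.4 to 102 CPM (median 75.2) and 73.3 to 497 (median 217). Both overlapped between groups, and in each the lowest Col5a1CKO wounds were replicates b, e and g. Nfkb2, which encodes the p100 precursor of p52, had 5.91 to 53.1 CPM (median 34.2) and 37.1 to 139 (median 82.0), while Nfkb1, which encodes the p105 precursor of p50, had 43.7 to 181 CPM (median 98.7) and 82.3 to 200.1 (median 168). Both subunit genes overlapped between the groups.

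The log2 fold changes at day 14 were 3.36 for Tnfaip3 (standard error 0.59), 2.02 for Tnf (0.97), 1.73 for Tnfaip2 (0.32), 1.70 for Nfkbiz (0.44), 1.46 for Nfkb2 (0.44), 1.45 for Nfkbia (0.42), 0.36 for Nfkb1 (0.31) and 0.27 for Tnfrsf1a (0.37). With Tnfrsf1b, 6 of the 9 genes passed the thresholds as higher, where 5.57% of all 14368 genes tested did, and 2 of the 9 (Tnfrsf1b and Tnfaip2) lay higher without overlap, as 2.31% of all genes did. Since this contrast gave Tnfrsf1b its place, nothing is read from these counts. The library set moved some values by over 1.5 times. The log2 fold change of Tnfrsf1a was 1.08 within the lower and -0.02 within the upper set, that of Nfkb1 0.85 and 0.07, and that of Nfkb2 2.05 and 1.22. Within the lower and upper set it was 3.62 and 2.42 for Tnfaip3, 1.64 and 2.87 for Tnf, and 1.88 and 1.16 for Nfkbiz. The summed leukocyte markers (Ptprc, Itgam and Laptm5) moved the same way, with 132 to 275 CPM in WT against 409 to 1542 in Col5a1CKO wounds and all 3 called higher. So did the 3 endothelial markers, all called higher (48.4 to 184 against 174 to 419.8 CPM summed), and 4 of 7 macrophage and monocyte markers. The part of the library set and of these cell types in these differences was not tested.

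**Figure D1:**
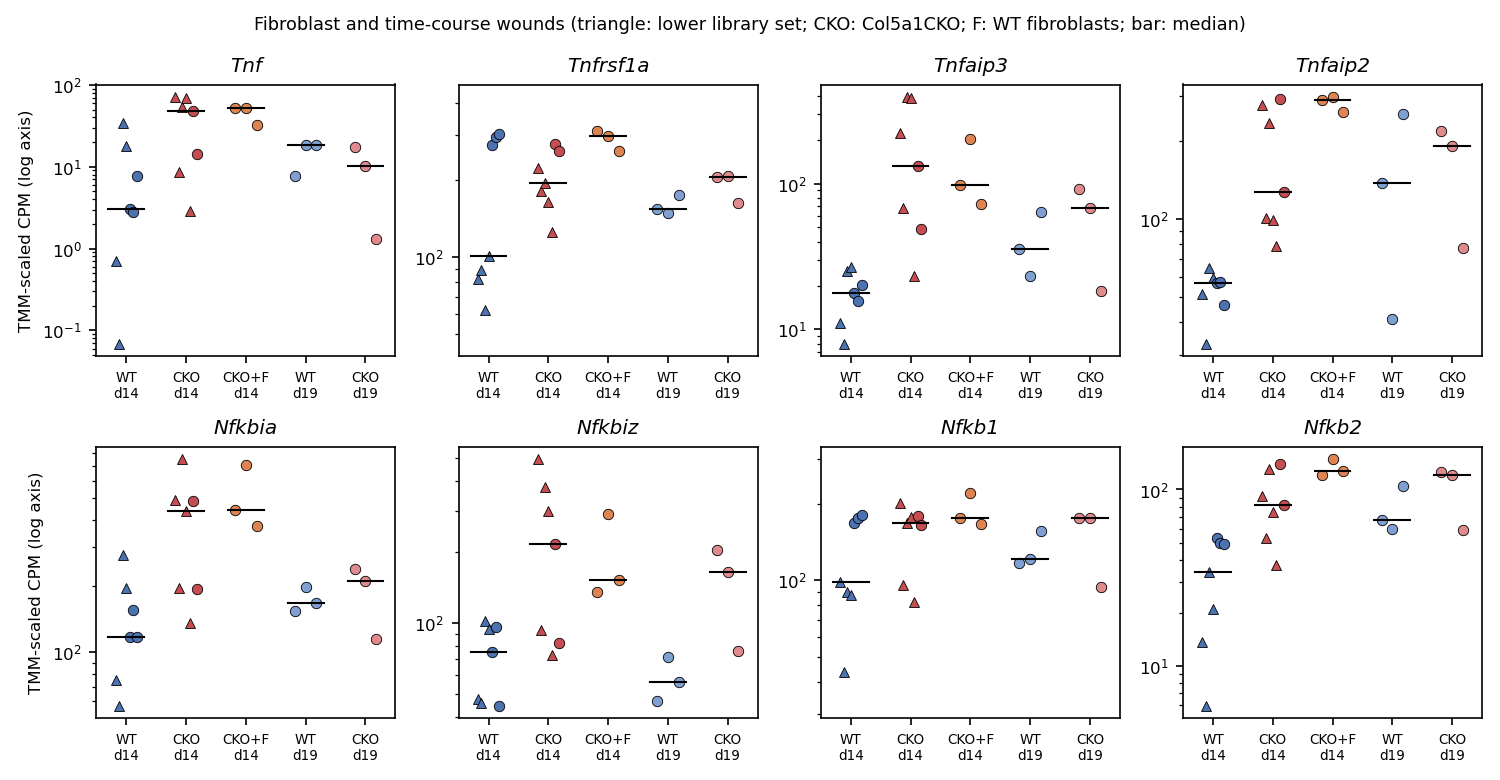
TMM-scaled CPM on a log axis of the 8 genes other than Tnfrsf1b in each wound of the fibroblast and time-course table, by group, with triangles for the lower library set and a bar at the median. The WT triangles of Tnfrsf1a, Nfkb1 and Nfkb2 lie below the WT circles, and Tnfaip2 is the 1 panel in which the WT and Col5a1CKO wounds of day 14 do not overlap.

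Among the groups of the first table, Tnfrsf1b was lowest in WT wounds at day 14, none of which exceeded 44.9 CPM. The other groups had medians of 284 CPM in fibroblast-injected wounds (259.6, 284 and 593), 209 in Col5a1CKO wounds at day 14, 167 in Col5a1CKO wounds at day 19 (44.6, 167 and 194) and 151 in WT wounds at day 19 (30.8, 151 and 219). Neighboring groups in this order overlapped in their wounds, as did WT wounds of day 19 and day 14, and the groups of day 19 each had 1 wound near the WT level of day 14 and 2 wounds well above it. In the cilengitide table the medians were 712 CPM in vehicle-treated Col5a1CKO, 91.1 in cilengitide-treated Col5a1CKO and 32.5 in WT wounds, and none of these 3 groups overlapped with another.

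**Figure D2:**
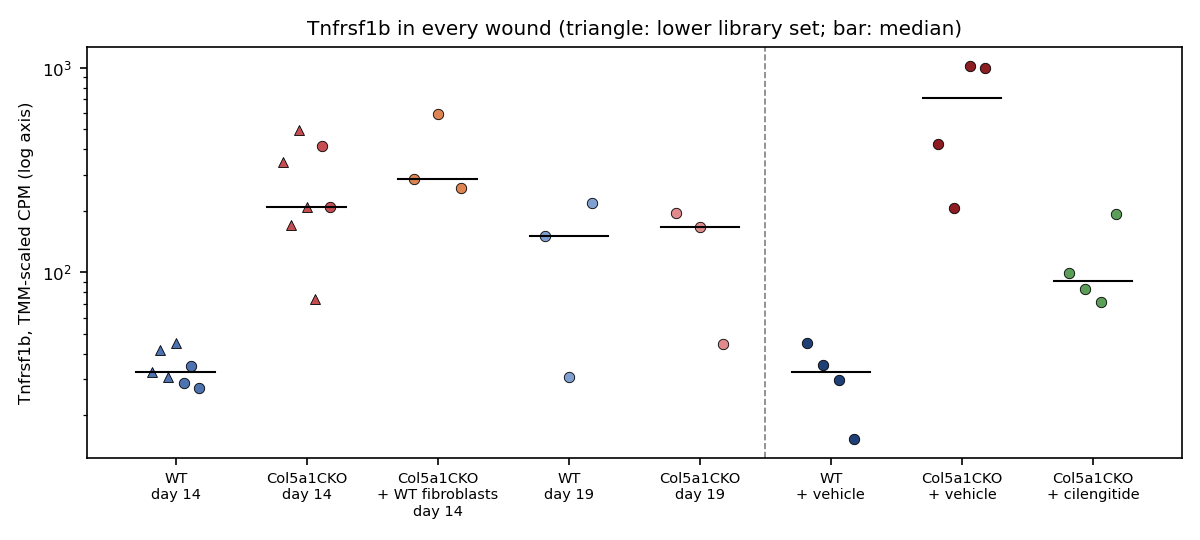
Tnfrsf1b in every wound as TMM-scaled CPM on a log axis, by group, with triangles for the lower library set, a bar at the median and a dashed line between the separately scaled tables. WT wounds of day 14 lie between 27.1 and 44.9 CPM, while both groups of day 19 run from near that level to 219 (WT) and 194 (Col5a1CKO).

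The vehicle-treated wounds of the cilengitide experiment give the genotype contrast in a separate set of wounds. Whether they too entered the choice of Tnfrsf1b is not known, so its p-values in this experiment are to be read with that limit. In them the ligand, TNFR2 and every feedback gene of the set rose in Col5a1CKO wounds, while Tnfrsf1a and Nfkb1 did not pass the test. In all, 7 of the 9 genes were called higher and none lower, where 17.5% of 15435 genes tested were called higher and 13.4% lower. The median log2 fold change of the 9 genes was 2.89, against 0.02 over all genes. In 6 of the 9 genes every Col5a1CKO wound lay above every WT wound, which held for 23.4% of all genes tested. Xist RNA marked 2 of these WT wounds and no Col5a1CKO wound, and the part of sex in the contrast was not tested.

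Tnf had 2.65, 4.42, 3.81 and 1.77 CPM in WT replicates 1 to 4 and 41.5, 10.1, 255 and 329.6 CPM in Col5a1CKO replicates 1 to 4. All Col5a1CKO wounds lay above all WT wounds, and within the former replicates 3 and 4 stood well above replicates 1 and 2. Tnf rose by 5.63 on the log2 scale (standard error 1.12, edgeR adjusted p = 0.00524).

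Tnfrsf1b had 45.1, 35.3, 29.8 and 15.3 CPM in WT and 423, 207, 1023 and 1001 CPM in Col5a1CKO wounds. The groups did not overlap, and replicates 3 and 4 were again the highest. It rose by 4.39 on the log2 scale (standard error 0.62, edgeR adjusted p = 0.00158), a 20.9-fold difference. The other receptor gene, Tnfrsf1a, had 237, 211, 236 and 208 CPM in WT and 265, 223, 308 and 347 CPM in Col5a1CKO wounds. Its log2 fold change was 0.34 (standard error 0.17, edgeR adjusted p = 0.129), with 1 Col5a1CKO wound inside the WT range.

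Tnfaip3, which encodes A20, had 21.5, 17.3, 18.9 and 14.3 CPM in WT and 117, 55.9, 369 and 385 CPM in Col5a1CKO wounds. It rose by 3.67 on the log2 scale (standard error 0.63, edgeR adjusted p = 0.00297), and the groups did not overlap. Nfkbia had 103, 90.0, 116 and 75.4 CPM in WT and 286, 148, 1469 and 1376 CPM in Col5a1CKO wounds, again highest in replicates 3 and 4. It rose by 3.07 on the log2 scale (standard error 0.74, edgeR adjusted p = 0.0116). Tnfaip2 had the smallest standard error of the 7 genes that rose, with 47.3, 46.7, 45.4 and 30.5 CPM in WT and 315, 172, 461 and 327 CPM in Col5a1CKO wounds. Its log2 fold change was 2.89 (standard error 0.32, edgeR adjusted p = 0.00076).

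Nfkbiz had 59.9, 57.9, 72.1 and 29.3 CPM in WT and 143, 67.5, 589 and 594 CPM in Col5a1CKO wounds. Replicate 2 of the Col5a1CKO wounds fell inside the WT range, and the log2 fold change was 2.65 (standard error 0.71, edgeR adjusted p = 0.0178). The subunit gene Nfkb2 had 55.0, 43.2, 48.5 and 39.7 CPM in WT and 108, 79.3, 212 and 219 CPM in Col5a1CKO wounds, without overlap, and rose by 1.71 on the log2 scale (standard error 0.34, edgeR adjusted p = 0.0052). Nfkb1 had 147, 146, 151 and 128 CPM in WT and 161, 120.0, 216 and 263 CPM in Col5a1CKO wounds, which overlapped. Its log2 fold change was 0.39 (standard error 0.23, edgeR adjusted p = 0.197). Replicate 2, the wound with RNA of neither Xist nor Y-linked genes, had the lowest level of all 9 genes among the 4 Col5a1CKO wounds, and the count of calls was 7 with each of the 8 wounds left out in turn, that one included.

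**Figure D3:**
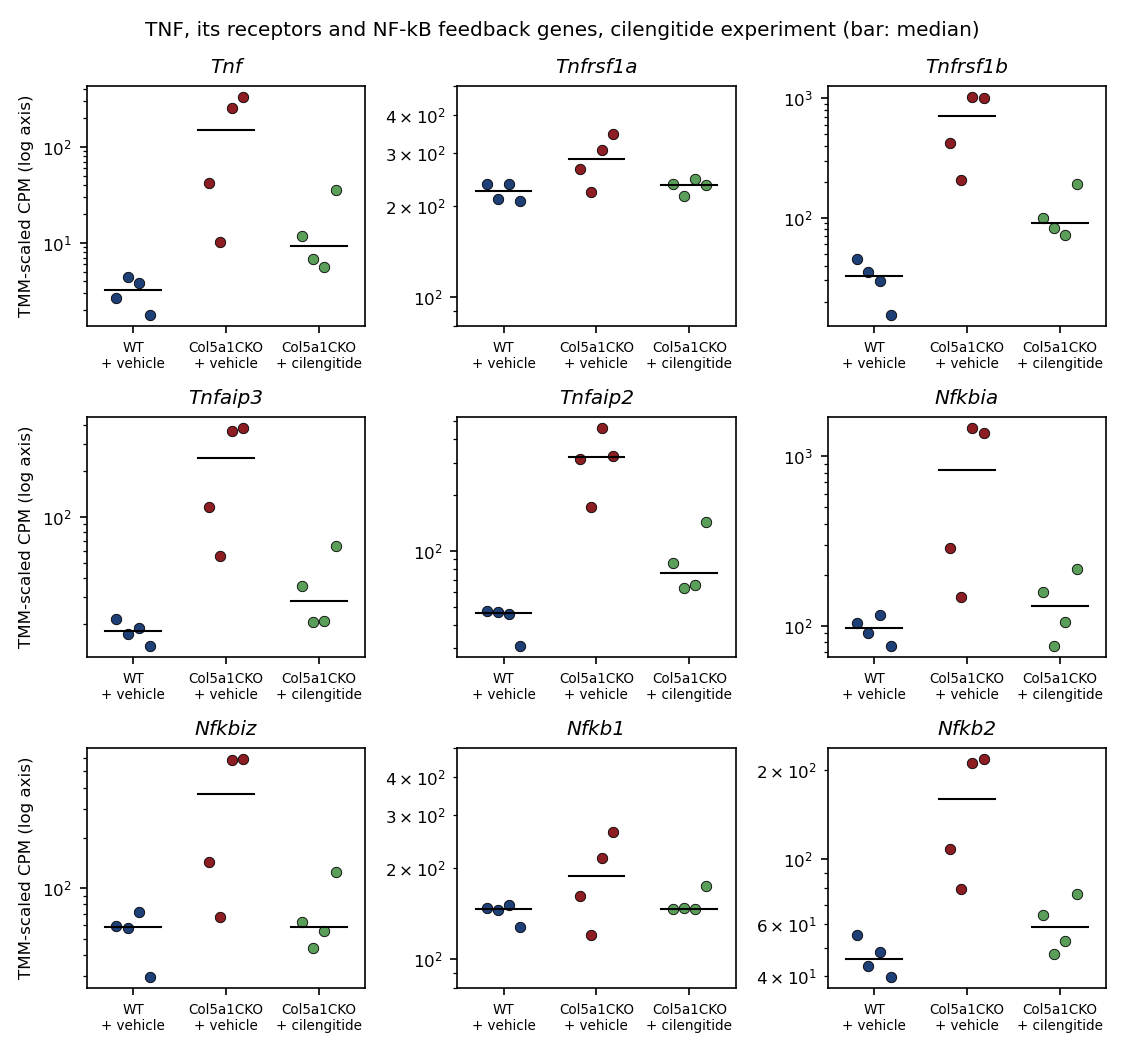
TMM-scaled CPM on log axes of the 9 genes in the 12 wounds of the cilengitide experiment, 1 panel a gene, 1 point a wound and a bar at the median. Vehicle-treated Col5a1CKO wounds stand above WT in 6 panels without overlap, while Tnfrsf1a and Nfkb1 keep a narrow range in all 3 groups.

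The wider pathway was read from lists of known members, chosen with earlier results of these data known. In vehicle-treated Col5a1CKO wounds 57 of its 110 tested genes (51.8%) were called higher and 3 lower. Of all genes tested, 17.5% were called higher and 13.4% lower. Among 30 further NF-kB target genes 25 rose and 1 fell, with a median log2 fold change of 2.71. They included Ccl2, a monocyte chemokine, at 7.97 ± 3.32 CPM in WT against 51.3 ± 8.91 in Col5a1CKO (SD, n = 4 each, log2 fold change 2.67, edgeR adjusted p = 0.000762). The cytokine Il6 went from a mean of 0.324 ± 0.243 CPM in WT to 26.9 ± 12.6 (SD, n = 4 each, log2 fold change 6.35, edgeR adjusted p = 0.00103), and the transcription factor Irf1 rose by 2.10 (edgeR adjusted p = 0.00114). Ccl20 was the target that fell, and it encodes a chemokine that keratinocytes are known to make, with 5.53 ± 1.54 CPM in WT against 0.0617 ± 0.0721 in Col5a1CKO (SD, n = 4 each, log2 fold change -6.34, edgeR adjusted p = 0.00175). Of the 25 that rose, 3 are Bcl2a1a, Bcl2a1b and Bcl2a1d, near-identical paralogs that reads of this length may not separate.

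In the TNF superfamily 18 of 34 tested ligand and receptor genes rose and 2 fell (median log2 fold change 1.29), beside 17.5% and 13.4% of all genes. The smallest adjusted p-values among those that rose belonged to Tnfsf11, which encodes RANK ligand (log2 fold change 6.03, edgeR adjusted p = 0.00106), Tnfrsf9, which encodes 4-1BB (4.86, adjusted p = 0.00111), and Tnfsf14, which encodes LIGHT (5.43, adjusted p = 0.00143). Tnfrsf18, which encodes GITR, fell by 2.46 on the log2 scale, and Tnfrsf19, which encodes TROY, fell by 5.50 from 100.4 ± 24.7 CPM in WT to 2.24 ± 1.32 (SD, n = 4 each).

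Against the 17.5% of all genes called higher and 13.4% called lower, 8 of 27 receptor adaptors and kinases rose and none fell. The necroptosis kinase gene Ripk3 rose by 2.01, the adaptor gene Traf1 by 4.03 and Casp8, a caspase gene of receptor complexes, by 1.05 on the log2 scale. Of 7 other NF-kB subunits and IkB proteins 4 rose, led by Nfkbie (IkB epsilon, log2 fold change 3.63), Relb (1.55) and Nfkbid (5.52). Of 8 other brakes on the pathway 2 rose, Tnip3 by 2.33 and Tnip1 by 1.51, a share near that of all genes, and none fell. No gene of the 4 tested for TNF release (Adam17, Rhbdf1, Rhbdf2 and Timp3) was called in edgeR.

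RNA of leukocytes and of other cell types moved with these genes. Each of the 3 leukocyte markers (Ptprc, Itgam and Laptm5) was called higher in vehicle-treated Col5a1CKO wounds, and their summed level was 93.6 to 196 CPM in WT against 817 to 2917 in Col5a1CKO wounds. All 7 macrophage and monocyte markers were higher (126 to 395 against 1316 to 5365.5 CPM), as were 4 of the 5 neutrophil markers measured (95.6 to 2209.6 against 1532 to 43836 CPM). Of 4 keratinocyte markers 3 fell, from a sum of 58372 to 95776 CPM in WT to 56.2 to 11002 in Col5a1CKO wounds. Of 3 endothelial markers 1 was called higher, and their sum was 38.4 to 273 CPM in WT and 304 to 755 in Col5a1CKO wounds, without overlap. Of 5 fibroblast markers 2 were called higher, with sums of 5573 to 33310.0 against 14087 to 62191 CPM. Of 6 T cell markers 2 rose and 1 fell, and no marker list was at 0 in every wound. In bulk tissue, fewer cells of a type and less RNA of a gene per cell cannot be told apart, and the part of these cell types in the rise of the TNF genes was not tested.

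Cilengitide was given to ask whether blocking these integrins changes the wounds of Col5a1CKO animals. Against vehicle, 5 of the 9 genes fell in cilengitide-treated Col5a1CKO wounds (Tnfrsf1b, Tnfaip3, Nfkbia, Tnfaip2 and Nfkb2) and none rose, where 6.59% of 15564 genes tested were called lower and 6.48% higher. All 9 log2 fold changes were below 0, with a median of -2.30 against -0.06 over all genes. In 3 of the 9 every treated wound lay below every vehicle wound, which held for 12.7% of all genes. Xist RNA marked 2 of the treated wounds and no vehicle wound, and the part of sex here was not tested.

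Tnfrsf1b had 99.7, 82.5, 71.8 and 192 CPM in cilengitide replicates 1 to 4, below each of the vehicle wounds, of which the lowest had 207 CPM. It fell by 2.59 on the log2 scale (standard error 0.58, edgeR adjusted p = 0.019). Tnf had 11.7, 6.77, 5.67 and 35.8 CPM, so that replicates 2 and 3 lay below and replicates 1 and 4 above the lowest vehicle wound at 10.1. Its log2 fold change of -3.43 had a standard error of 1.14 and did not pass (edgeR adjusted p = 0.0621). Tnfrsf1a had 236, 216, 246 and 235 CPM, which gave a log2 fold change of -0.31 (standard error 0.17, edgeR adjusted p = 0.21).

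Tnfaip3 had 35.7, 20.6, 20.8 and 64.8 CPM under cilengitide, and only replicate 4 reached the lowest vehicle wound at 55.9. It fell by 2.73 on the log2 scale (standard error 0.70, edgeR adjusted p = 0.0284). Nfkbia had 157, 76.3, 105 and 216 CPM, overlapping with vehicle, and fell by 2.59 (standard error 0.78, edgeR adjusted p = 0.0456). Tnfaip2 had 86.0, 63.0, 65.4 and 143 CPM without overlap and fell by 1.85 (standard error 0.38, edgeR adjusted p = 0.0142), while Nfkb2 had 64.7, 47.6, 52.7 and 75.8 CPM without overlap and fell by 1.38 (standard error 0.36, edgeR adjusted p = 0.028). Nfkbiz had 62.4, 44.1, 55.6 and 126 CPM, with a log2 fold change of -2.30 (standard error 0.74, edgeR adjusted p = 0.0553), and Nfkb1 had 146, 148, 146 and 174 CPM, with -0.32 (standard error 0.24, edgeR adjusted p = 0.354). Replicate 4 was the highest treated wound in 8 of the 9 genes, Tnfrsf1a being the exception.

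These calls depended on which wounds were kept in the fit. Without cilengitide replicate 1, 2 or 3 only Tnfaip2 stayed called, and the edgeR adjusted p of Tnfrsf1b was 0.0571, 0.0552 or 0.0544. Without vehicle replicate 3 there were 2 calls, and without vehicle replicate 2, the wound without Xist or Y-linked RNA, there were 7, since Tnf and Nfkbiz then passed. Nfkbiz also passed without vehicle replicate 1, and Nfkbia lost its call without cilengitide replicate 4 or vehicle replicate 4. In each of these 8 fits all 9 log2 fold changes stayed below 0.

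**Figure D4:**
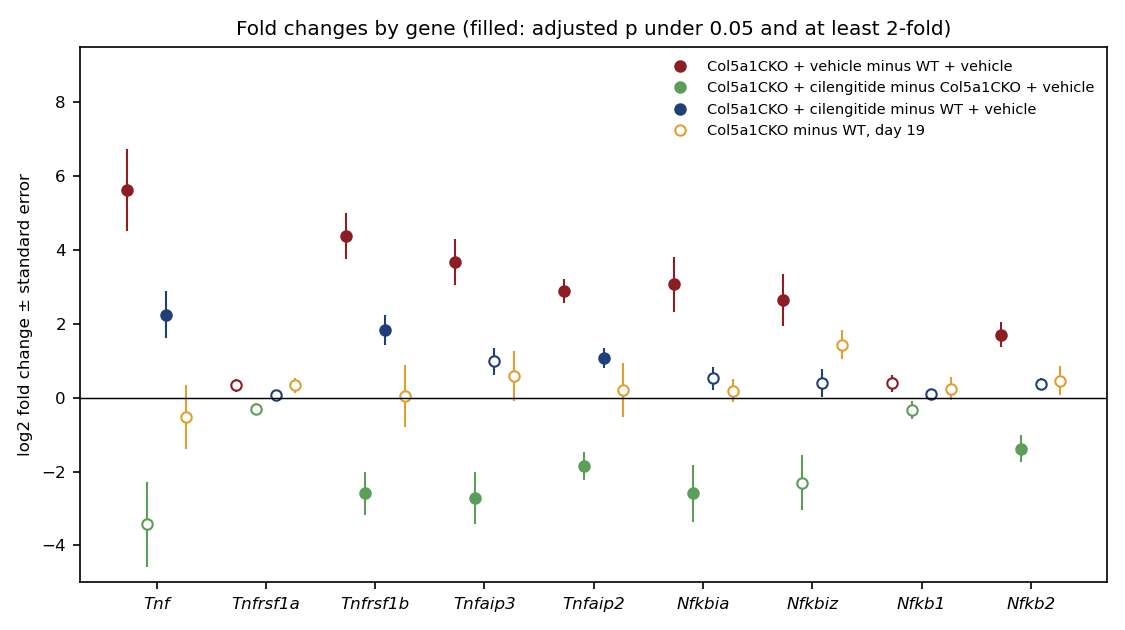
log2 fold changes ± standard error from edgeR for the 9 genes in 4 comparisons, filled where the adjusted p was under 0.05 with at least a 2-fold change. In vehicle-treated wounds 7 genes are filled, from 1.71 (Nfkb2) to 5.63 (Tnf), and under cilengitide 5 are filled, from -2.73 (Tnfaip3) to -1.38 (Nfkb2). These 2 comparisons share the vehicle-treated Col5a1CKO wounds.

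In the wider pathway 31 of 110 genes (28.2%) fell under cilengitide and 3 rose, beside 6.59% of all genes lower and 6.48% higher. Of the 30 NF-kB target genes 14 fell and 1 rose (median log2 fold change -1.80), the latter again Ccl20, which went from 0.0617 ± 0.0721 CPM with vehicle to 1.28 ± 0.649 with cilengitide (SD, n = 4 each, log2 fold change 4.23, edgeR adjusted p = 0.0212). Irf1 fell by 1.4 (edgeR adjusted p = 0.00395), Lif, a cytokine of the IL-6 family, by 1.55 (adjusted p = 0.00625) and Bcl2a1d by 1.68 (adjusted p = 0.0075). Of 34 TNF superfamily genes 10 fell and 2 rose. Cd40, the receptor that T cells engage on antigen-presenting cells, fell by 1.37, Tnfrsf14 by 1.51 and Tnfrsf13b by 1.4, whereas Tnfrsf19 rose by 3.85 and Tnfrsf18 by 1.30. Traf1, Cflar and Birc3 fell among the 27 adaptors and kinases (log2 fold changes -2.78, -1.84 and -1.86), Nfkbie and Relb among the 7 other subunits and IkB proteins (-2.48 and -1.19), and Tnip3 and Tnip1 among the 8 other brakes (-2.19 and -1.46). All 3 leukocyte markers fell too, to a summed 324 to 656 CPM, as did 4 of 7 macrophage and monocyte markers (570.4 to 980.3 CPM) and 1 of 5 neutrophil markers. Of 4 keratinocyte markers 2 rose, to 31342 to 65991 CPM. Their part in the fall of the TNF genes was not tested.

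Against WT with vehicle, 3 of the 9 genes were still called higher in cilengitide-treated Col5a1CKO wounds, where 5.15% of 15515 genes were. These were Tnf (log2 fold change 2.25, standard error 0.63, edgeR adjusted p = 0.0428), Tnfrsf1b (1.84, standard error 0.40, edgeR adjusted p = 0.0252) and Tnfaip2 (1.08, standard error 0.28, edgeR adjusted p = 0.0345), and in all 3 the treated wounds lay above the WT wounds without overlap, as in 14.4% of all genes. Tnfaip3 (0.99, adjusted p = 0.0889), Nfkbia (0.53, adjusted p = 0.227), Nfkbiz (0.40, adjusted p = 0.441), Nfkb2 (0.38, adjusted p = 0.122), Nfkb1 (0.11, adjusted p = 0.352) and Tnfrsf1a (0.07, adjusted p = 0.538) did not pass. With all 3 groups in one fit none of the 9 was called. Without cilengitide replicate 2, 3 or 4 or WT replicate 3 there were 0 calls, without cilengitide replicate 1 or WT replicate 1 or 4 there was 1, and without WT replicate 2 there were 2, with Tnf losing its call each time. Of 112 pathway genes tested 16 (14.3%) were higher and 3 lower than in WT wounds, among them Il6 (log2 fold change 3.26), Ptgs2, which encodes the prostaglandin enzyme COX-2 (3.68), and Tnfsf11 (3.62). All 3 leukocyte markers were higher than in WT wounds.

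No change of the TNF genes was detected after WT fibroblasts were injected into Col5a1CKO wounds. Against Col5a1CKO wounds without fibroblasts edgeR called none of the 15660 genes tested (0% higher and 0% lower), and so none of the 9. At an unadjusted p under 0.05 in edgeR with at least a 2-fold change, 37 genes were higher and 854 lower. With the replicate letter as a block, edgeR called 2540 genes, and none of the 8 other than Tnfrsf1b. That fit kept only Col5a1CKO wounds a to c, all of the lower library set, against fibroblast wounds of the upper set. Library set and treatment cannot be told apart in it. Without the block, none of the 8 genes other than Tnfrsf1b had an unadjusted p under 0.05, and DESeq2 called 19 genes in all and none of these 8. Tnf had 52.3, 51.9 and 32.3 CPM in fibroblast replicates a to c (log2 fold change 0.24, standard error 0.81, edgeR adjusted p = 0.902), inside the range of the Col5a1CKO wounds. Tnfaip3 had 97.6, 201 and 72 CPM (-0.57, standard error 0.83, edgeR adjusted p = 0.761) and Nfkbiz 136, 291 and 152 CPM (-0.29, standard error 0.62, edgeR adjusted p = 0.835). Within the upper library set, where all fibroblast wounds are, both of these turned to 0.50 and 0.41. The log2 fold change was 0.50 for Tnfrsf1a (adjusted p = 0.41), 0.69 for Tnfaip2 (0.462), 0.39 for Nfkbia (0.724), 0.29 for Nfkb1 (0.646) and 0.59 for Nfkb2 (0.462), all by edgeR. A p that misses the threshold does not show that the groups were alike.

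Against WT wounds at day 14 the fibroblast-injected wounds stayed high. Of the 8 genes other than Tnfrsf1b 5 were called higher, where 3.77% of 15318 genes were. Tnfaip3 rose by 2.92 (standard error 0.39, edgeR adjusted p = 0.0019), Tnfaip2, with 288, 297 and 258.5 CPM, by 2.55 (0.22, adjusted p = 0.000235), Nfkb2, with 121, 149 and 127 CPM, by 2.17 (0.52, adjusted p = 0.0301), Nfkbia, with 443, 707 and 374 CPM, by 1.97 (0.42, adjusted p = 0.018) and Nfkbiz by 1.55 (0.34, adjusted p = 0.0216) on the log2 scale. In these 5 every fibroblast wound lay above every WT wound, which held for 10% of all genes. Tnf (2.39, adjusted p = 0.226), Tnfrsf1a (0.89, adjusted p = 0.321) and Nfkb1 (0.78, adjusted p = 0.252) did not pass in edgeR. Of 109 pathway genes tested 14 were called higher and 1 lower. Tnfrsf1b, given as a description, differed by 3.58 on the log2 scale. Without fibroblast replicate a there were 3 calls, and without b or c 2, with Nfkb2 and Nfkbia lost in each of the 3 and Nfkbiz without b or c. Within the upper set, with 3 wounds a group, Tnf also passed (3.48, adjusted p = 0.00149), while the log2 fold change of Nfkb2 was 1.53 and that of Tnfrsf1a 0.14. The 4 WT wounds of the lower set had 5.91 to 34.2 CPM of Nfkb2, against 49.3 to 53.1 in the 3 of the upper set, where all fibroblast wounds are. All 3 leukocyte markers were called higher here as well (849 to 1080.1 CPM summed against 132 to 275), and the 5 fibroblast markers were not. The WT and fibroblast wounds of the upper set differ in sex RNA, so sex and group cannot be told apart within it.

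At day 19 no gene of the set was called between genotypes in edgeR, and wounds of both groups varied widely. For the 9 genes edgeR gave 0 calls, where 0.0198% of 15136 genes (3 genes) were called higher and none lower, and DESeq2 called 1. Only Nfkbiz had an unadjusted p under 0.05. It had 46.4, 71.9 and 56.3 CPM in WT and 204, 165 and 76.3 CPM in Col5a1CKO wounds, and all of the latter lay above the former, as in 16.4% of all genes tested. Its log2 fold change was 1.43 (standard error 0.39, unadjusted p = 0.0108, edgeR adjusted p = 0.136, DESeq2 adjusted p = 0.0134). On simulated counts the edgeR test of this comparison recovered 26.8% of 4-fold changes, so a gene without a call may still differ.

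Tnfrsf1b had 151, 30.8 and 219 CPM in WT replicates a to c and 194, 167 and 44.6 CPM in Col5a1CKO replicates a to c at day 19. Both groups held high and low wounds, and the log2 fold change was 0.06 (standard error 0.84, edgeR adjusted p = 0.973). Tnf had 7.68, 18.2 and 18.4 CPM in WT and 17.7, 10.3 and 1.31 CPM in Col5a1CKO wounds (log2 fold change -0.51, standard error 0.86, edgeR adjusted p = 0.725). Tnfaip3 had 35.6, 23.2 and 64.2 CPM in WT and 92.4, 67.8 and 18.4 CPM in Col5a1CKO wounds (0.59, standard error 0.67, edgeR adjusted p = 0.598). The wounds that were low in Tnfrsf1b, WT replicate b and Col5a1CKO replicate c, were also the lowest of their groups in Tnfaip3 and Tnfaip2, and their Ptprc levels of 18.2 and 27.7 CPM were the lowest of their groups. Not all genes followed this. WT replicate b was the highest of its group in Nfkbia (199 CPM) and Nfkbiz (71.9 CPM), whereas Col5a1CKO replicate c was the lowest of its group in both.

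The other genes at day 19 had log2 fold changes of 0.33 for Tnfrsf1a (edgeR adjusted p = 0.323), 0.20 for Tnfaip2 (0.883), 0.19 for Nfkbia (0.71), 0.24 for Nfkb1 (0.637) and 0.46 for Nfkb2 (0.477). Scaling by library size only gave a median log2 fold change of -0.39 over all genes, against -0.01 with TMM, and with that shift the values of Tnfrsf1a, Tnfrsf1b, Tnfaip2, Nfkbia and Nfkb1 lay below 0. The difference between day 14 and day 19 was not tested. None of the 107 pathway genes tested was called at day 19 in edgeR. The record of the 3 Col5a1CKO wounds of day 19 names a fibroblast treatment that the titles place at day 14, and the titles were followed. All 3 of these wounds had Xist RNA, as did 2 of the 3 WT wounds of day 19, and the part of sex in the day 19 values was not tested. The study lists both sexes for the Col5a1CKO wounds of day 19 and for the fibroblast-injected wounds, whereas every library of both groups carried Xist RNA. The numbers of each sex it lists for the 7 WT and 7 Col5a1CKO wounds of day 14 differ from the RNA as well. Among these, 5 WT and 4 Col5a1CKO libraries carried Y-linked RNA, and 2 and 3 carried Xist RNA.

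The genes whose levels were most like Tnfrsf1b across wounds were ranked in each table. Over the 23 wounds of the first table they included, by Pearson r of log2(CPM + 1), Syk (0.964), Fth1 (0.949), Hcls1 (0.949) and Tarm1 (0.945), out of the 12070 genes whose mean reached 5 CPM. Over the 12 wounds of the cilengitide table they were Igsf6 (0.998), Rac2, Sfpi1 (both 0.997), Selplg and Hcls1 (both 0.996), out of 11636. Syk is a kinase, Rac2 a GTPase and Sfpi1 (PU.1) a transcription factor of blood cells. Of the set itself Tnfaip2 was closest to Tnfrsf1b in both tables (0.928 and 0.984), Tnfrsf1a farthest in the first (0.471) and Nfkb1 in the second (0.749). With Ptprc, which encodes CD45, r was 0.841 over the 23 wounds and 0.995 over the 12. These are descriptions over wounds that share libraries, scaling and the group differences, the day 14 wounds that picked Tnfrsf1b included, and carry no test.

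Divided by the Ptprc level of its wound, Tnfrsf1b overlapped between the groups of the cilengitide experiment. This ratio was chosen once the values were known, and it was 0.838, 0.652, 0.759 and 0.440 in WT, 0.956, 0.773, 1.03 and 1.04 in vehicle-treated Col5a1CKO and 0.831, 0.795, 0.754 and 0.822 in cilengitide-treated wounds. At day 14 in the first table it was 0.247 to 0.929 (median 0.393) in WT and 0.449 to 1.48 (median 0.851) in Col5a1CKO wounds. These ranges overlap, but they pool the library sets. Inside the lower set the highest WT ratio, 0.393 in replicate b, was below the lowest Col5a1CKO ratio, 0.449 in replicate a. Genotypes were also apart inside the upper set, where WT replicate g reached 0.929 and Col5a1CKO replicate f was lowest with 1.245. At day 19 WT wounds had 1.33 to 1.69 and Col5a1CKO wounds 1.04 to 1.61, both above the WT range of day 14. Tnf per Ptprc was 0.0493 to 0.0970 in WT, 0.0379 to 0.342 in vehicle-treated and 0.0595 to 0.153 in cilengitide-treated Col5a1CKO wounds. Of the 9 genes, Tnf and Tnfrsf1b had a higher median ratio in vehicle-treated Col5a1CKO than in WT wounds. The other 7 had lower medians, among them Nfkbia (1.04 against 2.04), Nfkb2 (0.236 against 1.08), Tnfaip2 (0.555 against 0.878), Tnfaip3 (0.318 against 0.404) and Tnfrsf1a (0.480 against 5.19). Cells other than leukocytes also express several of these genes, and the share of each cell type was not tested.

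**Figure D5:**
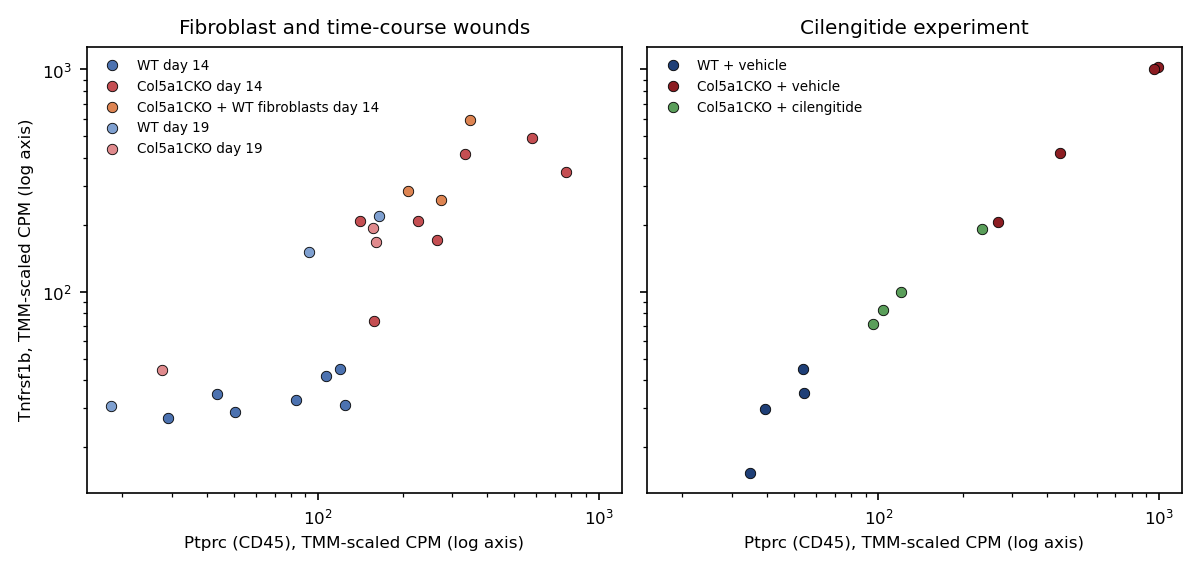
Tnfrsf1b against Ptprc (CD45) in each wound, both as TMM-scaled CPM on log axes, for the 2 separately scaled tables, with 1 point a wound colored by group. In the cilengitide experiment the 12 wounds lie along 1 line (r = 0.995), and in the other table WT wounds of day 14 stay at 27.1 to 44.9 CPM of Tnfrsf1b over a range of Ptprc from 29.2 to 125 CPM.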

How the data were processed

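RNA of whole wounds was sequenced as 50 bp single-end reads from a strand-keeping kit. Per the study's methods, Hisat2 aligned reads to NCBI37/mm9, keeping reads aligned once with up to 2 mismatches, and SeqMonk counted them over exons of RefSeq genes. Whether this also holds for the cilengitide table is not given in the sources used here. The values are raw counts per transcript as the authors deposited them. Of several rows of a gene (Nfkbiz, Nfkb2 and Tnfaip3 among the 9), the row with most counts was kept.

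Groups followed the sample titles. Genes passing filterByExpr with a minimum count of 10 were tested with the quasi-likelihood test of edgeR 4.0.16 in R 4.3.3 (TMM scaling, robust fit, Benjamini-Hochberg adjustment over all genes), with only the 2 groups of each comparison in a fit. DESeq2 1.42.0 was an alternative, as were other scalings, filters and designs and leaving out wounds. Each table was scaled on its own. Standard errors are the log2 fold change divided by the square root of F. CPM, RPKM and plots were made in Python 3.11.15 (pandas 2.3.3, numpy 2.4.6, scipy 1.17.1, matplotlib 3.10.9). Each test was tried on simulated counts in which some genes were changed 4-fold. Between genotypes it recovered 61.5% of these at day 14, 26.8% at day 19 and 60.2% in vehicle-treated wounds. Recovery was 42.1% for fibroblasts against none and 21.3% for fibroblasts against WT. For cilengitide it was 67.4% against vehicle and 77.7% against WT. The members and lists were chosen with earlier results of these data known. All 9 genes are named everywhere, with up to 3 called genes per pathway list and direction by adjusted p, and the 5 genes most like Tnfrsf1b in each table, of which 1 is not reported here. Per the study's methods, samples of a group are separate biological replicates.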

Additional observations from a re-analysis of the deposited data

Results flagged for a closer look

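Of 45 groups of 4 or more wounds, each examined for 1 gene, 2 held a wound far from the others, and chance alone gives about 1 in 20. Tnfaip2 was 30.5 CPM in WT vehicle replicate 4, where the other 3 wounds had 45.4 to 47.3 CPM. Nfkb1 was 174 CPM in cilengitide-treated Col5a1CKO replicate 4, where the other 3 had 146 to 148 CPM.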

How the results depend on the processing

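In vehicle-treated wounds 7 of the 9 genes were called under each alternative tried, leaving out each wound included. Under cilengitide against vehicle, leaving out 1 wound gave 1 to 7 calls around the 5 reported, and against WT it gave 0 to 2 calls and a fit of all groups gave 0, where 3 were reported. At day 14, where 6 genes passed, 3 did within the upper library set. Fibroblast-injected wounds against WT gave 2 to 3 calls of 8 with 1 fibroblast wound left out.

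At day 19 DESeq2 called 1 gene (Nfkbiz). There, scaling by library size only, chosen after seeing the data, moved the median of all genes from -0.01 to -0.39 and with it Tnfrsf1a to -0.04, Tnfrsf1b to -0.24, Tnfaip2 to -0.10, Nfkbia to -0.21 and Nfkb1 to -0.13 on the log2 scale. With 1 wound of day 19 left out, Tnf ranged from -1.26 to 0.01, Tnfrsf1b from -0.42 to 0.63, Tnfaip2 from -0.25 to 0.92 and Nfkbia from -0.02 to 0.46. For fibroblasts against none, Tnfaip3 turned to 0.50 within the upper library set and 0.45 with the set as a covariate, and Nfkbiz to 0.41 and 0.36. The cause was not tested.

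Over all genes, edgeR, DESeq2 and a fit of all groups called 1189, 2095 and 2425 genes at day 14, 3, 1397 and 1 at day 19, 0, 19 and 0 for fibroblasts against none, 893, 2046 and 1991 for fibroblasts against WT, and 1331, 2166 and 483 for cilengitide against WT. Whether wounds of the same replicate letter were paired is not known. Same-lettered wounds did not deviate together throughout. Correlations of deviations ran from -0.462 to 0.572 at day 14 and from -0.434 to -0.317 at day 19. For fibroblasts against none they ran from -0.195 to 0.413, and for fibroblasts against WT from 0.017 to 0.391. The deviations can also carry the library set, so these correlations cannot decide on pairing. With a replicate block the count was 6 at day 14, 0 at day 19, 0 for fibroblasts against none and 6 of 8 for fibroblasts against WT, where Tnfrsf1a and Nfkb1 gained and Nfkbia lost a call, over 3176 genes called in all. For fibroblasts against none the block called 2540 genes in all, where 0 were called without it. In both fibroblast comparisons the block kept only wounds a to c of each group. Those of WT and Col5a1CKO are in the lower library set and the fibroblast wounds in the upper set. Set and group cannot be told apart in these fits, so nothing is read from the calls gained or lost. Wound numbers of the cilengitide table are not shared labels, and no block was fitted there.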
